A study of Drosophila melanogaster with 6 samples.

Results

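In the fruit fly, 70 genes carry a symbol made of Cpr followed by a number and letters, such as Cpr65Av, and these cuticle protein genes are described here in whole larvae of instar 3 labelled crol-KO and labelled wild-type. The 70 genes were chosen by symbol alone out of 16508 genes in the tables, and 40 of them reached at least 10 counts in at least 3 of 6 libraries and were tested. The gene called Cpr with no number, which encodes cytochrome P450 reductase, was not among them.

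Insect cuticle is a layered coat of chitin fibres and structural proteins that epidermal cells secrete anew at each moult. Most Cpr genes encode secreted proteins with a Rebers-Riddiford domain, the conserved stretch by which such proteins bind chitin, and the number and letter in a symbol give the cytological band of the gene. Pulses of the steroid hormone ecdysone set when each cuticle gene is used, so that larval, pupal and adult cuticles differ in the proteins they hold.

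The study asked how loss of crol, the gene of a zinc finger protein that binds DNA, alters transcription, and sequenced polyadenylated RNA of pooled whole larvae, 40 per library. The larvae labelled crol-KO, 3 libraries, carried a deletion of crol made with Cas9 and homologous recombination in a yellow white background. The mutation was kept over a CyO balancer chromosome that carries a transgene with a white marker and a dominant allele of Tb, itself a cuticle gene, and the labels do not say whether the larvae sequenced were homozygous. The larvae labelled wild-type, also 3 libraries, were of the Oregon stock, so that strain and genotype cannot be told apart.

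Between 23637969 and 49236787 expected counts were assigned to genes in a library. The names of all 6 tables carry the other genotype than the sample labels, and groups here follow the labels. crol had 42.8, 39.1 and 37.0 normalized CPM (counts relative to library size, scaled by the trimmed mean of M values, TMM) in the libraries labelled crol-KO, against 63.3, 60.6 and 73.2 in those labelled wild-type. The eye pigment transporter gene w, which is mutated in the stock of the knockout, had 15.2, 16.6 and 17.9 CPM in the libraries labelled crol-KO, against 0.817, 0.623 and 0.561 in those labelled wild-type. The level of crol thus went with the labels and that of w against them. Whether larvae with the white marker of the balancer were present was not tested, and that marker belongs to the knockout stock only. Why w was as low as 0.561 to 0.817 CPM in the libraries labelled wild-type was not tested either. Every direction given here would be turned round if the table names held. Whole larvae hold all tissues, so that fewer cells of a type and less RNA per cell cannot be told apart.

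Of the 40 tested Cpr genes, 14 were called, 9 lower and 5 higher in the larvae labelled crol-KO. A gene was called at an adjusted p below 0.05 (edgeR, quasi-likelihood test, Benjamini-Hochberg over 12434 genes) together with an absolute log2 fold change of more than 1. The called genes made up 35% of the tested Cpr genes, against 13.6% of all tested genes. By direction, 22.5% of the Cpr genes were called lower and 12.5% higher, against 7.55% and 6.0% of all tested genes. The family moved in both directions: the median log2 fold change of the Cpr genes was -0.06, beside -0.05 for all tested genes, while the median absolute log2 fold change was 0.71 in Cpr genes and 0.42 in all genes. Values of libraries did not overlap between the groups for 22 of the 40 Cpr genes, or 55%, against 50.2% of all tested genes. Among these 22, 13 lay lower and 9 higher in the libraries labelled crol-KO, or 32.5% and 22.5% of the tested Cpr genes, against 26.5% and 23.7% of all tested genes, and all 14 called genes were among them.

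**Figure D1:**
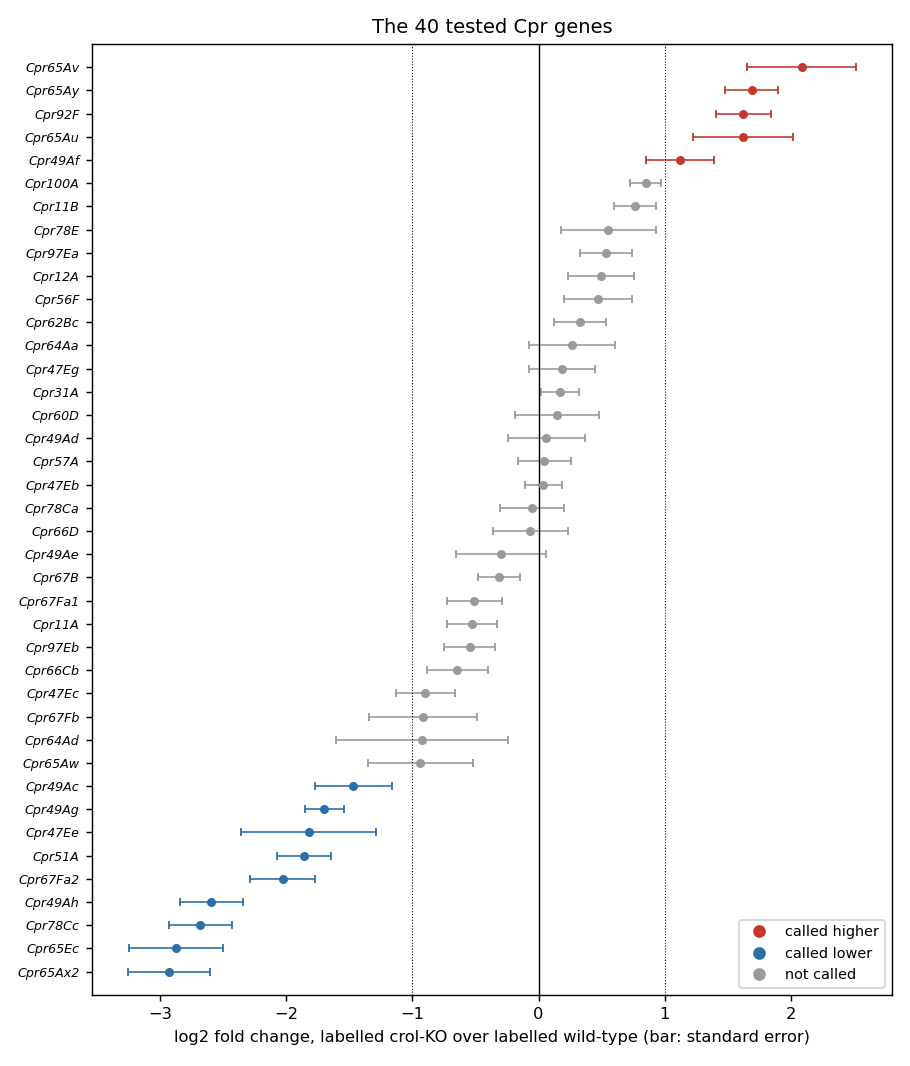
Log2 fold change (x axis, labelled crol-KO over labelled wild-type) of each of the 40 tested Cpr genes (y axis), with bars for the standard error and dotted lines at an absolute value of 1. The 9 called lower lie between -2.93 and -1.47, the 5 called higher between 1.12 and 2.09, and the 26 not called between -0.94 and 0.85.

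Cpr65Ax2, the Cpr gene of the highest mean TPM over the 6 libraries, had the most negative log2 fold change of the family. It had 50, 99.5 and 53.1 normalized CPM in the libraries labelled crol-KO, against 571, 367 and 605 in those labelled wild-type. The groups lay far apart, and even the lowest library labelled wild-type was above every library labelled crol-KO. The mean was 7.62-fold lower, with a fitted log2 fold change of -2.93 (standard error 0.325, edgeR adjusted p = 0.000813). In TPM (a level scaled to transcript length and to the total of the library), it reached 123, 188 and 116 in the libraries labelled crol-KO, against 1961, 1541 and 1777 in those labelled wild-type, where it made up 31.6% of the summed Cpr level. In the libraries labelled crol-KO it was not the highest Cpr gene on either scale.

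Cpr49Ac was the other gene called lower among the 6 of highest mean TPM. Its values were 140, 256 and 307 CPM in the libraries labelled crol-KO and 523, 821 and 599 CPM in those labelled wild-type (log2 fold change -1.47, standard error 0.303, edgeR adjusted p = 0.00970). The groups did not overlap, and replicate 1 was the lowest of either group.

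Another 3 genes of middle or low level fell almost as much as Cpr65Ax2. Cpr65Ec had 0.257, 0.653 and 0.694 CPM in the libraries labelled crol-KO, against 3.68, 3.10 and 4.71 in those labelled wild-type (log2 fold change -2.87, standard error 0.374). Cpr78Cc had 7.79, 9.66 and 5.15 CPM in the libraries labelled crol-KO, against 41.9, 43.1 and 61.5 in those labelled wild-type (-2.68, standard error 0.253). Cpr49Ah had 3.27, 4.80 and 3.17 CPM in the libraries labelled crol-KO, against 20.9, 17.6 and 30.0 in those labelled wild-type (-2.59, standard error 0.251). In each of them the whole group labelled crol-KO stayed well below the lowest library labelled wild-type, with edgeR adjusted p-values of 0.00152, 0.000414 and 0.000462.

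The other called genes fell less. Cpr67Fa2 had 12, 14.8 and 10.6 CPM in the libraries labelled crol-KO, against 66.5, 33.4 and 53.2 in those labelled wild-type (-2.03, standard error 0.258, edgeR adjusted p = 0.00136). Cpr51A, which has no other Cpr gene in its band, had 4.89, 8.51 and 6.09 CPM in the libraries labelled crol-KO, against 24.8, 20.4 and 25.8 in those labelled wild-type (-1.86, standard error 0.211, edgeR adjusted p = 0.000884). The groups were again clear of each other in both. Cpr49Ag had 15.8, 10.9 and 11.8 CPM in the libraries labelled crol-KO, against 41.9, 39.9 and 43.3 in those labelled wild-type (-1.70, standard error 0.155, edgeR adjusted p = 0.000370), and its libraries labelled wild-type lay the closest together of the genes called lower. Cpr47Ee rested on few reads, with 0.0514, 0.261 and 0.248 CPM in the libraries labelled crol-KO and 0.817, 0.603 and 0.505 in those labelled wild-type. Its call (-1.82, standard error 0.537, edgeR adjusted p = 0.0349) was lost on log2(TPM + 1), with replicate number as a block and without each of 4 libraries in turn, replicates 1 and 3 labelled crol-KO and replicates 1 and 2 labelled wild-type.

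Among the genes that rose, 3 of 5 stand in band 65A, which holds 5 of the 40 tested Cpr genes. Cpr65Av had 45.8, 166 and 68.8 CPM in the libraries labelled crol-KO, against 23.7, 19.7 and 22.7 in those labelled wild-type (2.09, standard error 0.431, edgeR adjusted p = 0.00970). All of the libraries labelled crol-KO were above the other group, but replicate 2 was far above its own group, and without it the log2 fold change was 1.38 (edgeR adjusted p = 0.00556). Cpr65Ay had 15.9, 16.3 and 12.1 CPM in the libraries labelled crol-KO, against 4.38, 3.58 and 5.84 in those labelled wild-type (1.69, standard error 0.209, edgeR adjusted p = 0.00124). Cpr65Au had 8.61, 21.3 and 12.9 CPM in the libraries labelled crol-KO, against 4.09, 2.95 and 6.93 in those labelled wild-type (1.62, standard error 0.397, edgeR adjusted p = 0.0183). Of these genes Cpr65Ay had the tightest values in the larvae labelled crol-KO, while the groups of Cpr65Au came close to touching.

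Outside band 65A, Cpr92F and Cpr49Af rose. Cpr92F had 17.3, 28.6 and 19.0 CPM in the libraries labelled crol-KO, against 6.19, 6.63 and 8.22 in those labelled wild-type (log2 fold change 1.62, standard error 0.215, edgeR adjusted p = 0.00163). Cpr49Af, the most abundant Cpr gene that rose, had 182, 234 and 134 CPM in the libraries labelled crol-KO, against 81.2, 60.9 and 111 in those labelled wild-type (1.12, standard error 0.266, edgeR adjusted p = 0.0164). The groups of Cpr92F were well apart and those of Cpr49Af were not. Without replicate 2 labelled crol-KO, and likewise without replicate 1 labelled wild-type, 3 Cpr genes were called higher instead of 5, and the calls lost were those of Cpr49Af and Cpr65Au.

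**Figure D2:**
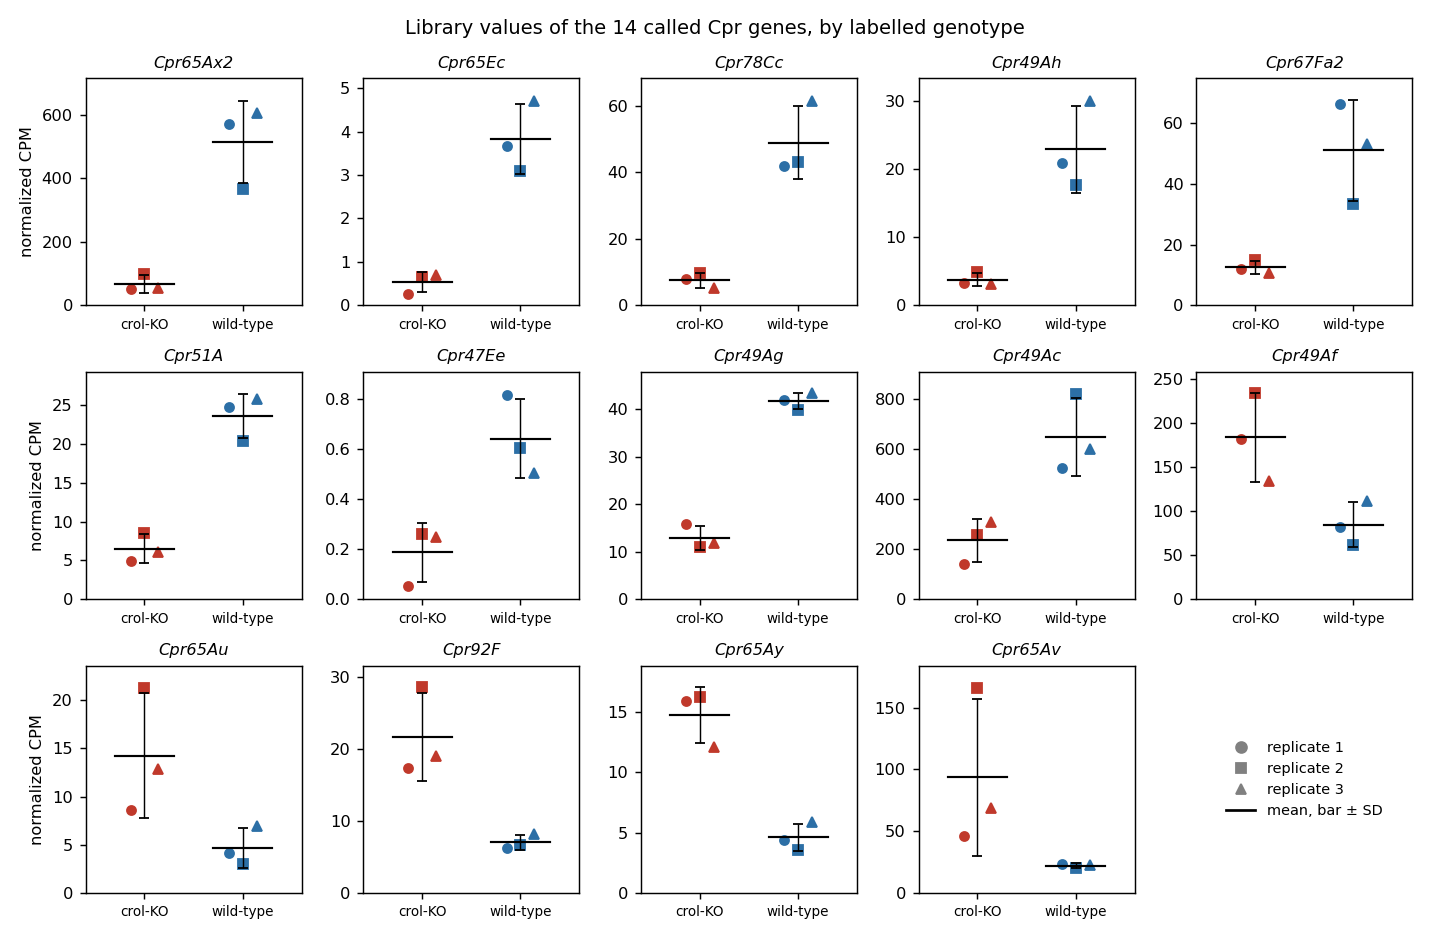
Normalized CPM (y axis of each panel, starting at 0) of the 14 called Cpr genes in the libraries labelled crol-KO (red) and wild-type (blue), in order of log2 fold change. Points are libraries, with a symbol for each replicate number, and black lines are the mean with the SD of 3 libraries. No called gene has overlapping groups, from Cpr65Ax2 (50 to 99.5 against 367 to 605 CPM) to Cpr65Av (45.8 to 166 against 19.7 to 23.7 CPM).

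Several of the most abundant Cpr genes were not called. Cpr60D, second in mean TPM, had 182, 371 and 176 CPM in the libraries labelled crol-KO, against 211, 159 and 291 in those labelled wild-type (log2 fold change 0.14, standard error 0.332, edgeR adjusted p = 0.762). Cpr78E had 126, 399 and 195 CPM in the libraries labelled crol-KO, against 136, 168 and 187 in those labelled wild-type (0.55, standard error 0.377, edgeR adjusted p = 0.287). Cpr47Eg had 164, 216 and 122 CPM in the libraries labelled crol-KO, against 160, 103 and 179 in those labelled wild-type (0.19, standard error 0.260, edgeR adjusted p = 0.605). The groups of all of these overlapped, and in each of them replicate 2 labelled crol-KO held the highest value of the 6 libraries. Without that library the log2 fold changes of Cpr60D, Cpr78E and Cpr47Eg were -0.30, -0.03 and -0.04.

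A further 3 Cpr genes had an adjusted p below 0.05 but a smaller fold change than the threshold. Cpr47Ec, the sixth in mean TPM, had 150, 182 and 105 CPM in the libraries labelled crol-KO, against 258, 223 and 333 in those labelled wild-type (-0.90, standard error 0.232, edgeR adjusted p = 0.0222). Cpr100A had 26.7, 28.3 and 25.8 CPM in the libraries labelled crol-KO, against 13.1, 14.8 and 16.9 in those labelled wild-type (0.85, standard error 0.125, edgeR adjusted p = 0.00248). Cpr11B had 29.3, 37.4 and 33.8 CPM in the libraries labelled crol-KO, against 23.3, 15.7 and 20 in those labelled wild-type (0.77, standard error 0.167, edgeR adjusted p = 0.0120). None of them had overlapping groups, and Cpr100A was measured more tightly than any called gene. At an unadjusted p below 0.05, 22 Cpr genes passed, or 55%, beside 45.6% of all tested genes.

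Among the 26 tested Cpr genes without a call, 14 had a higher and 12 a lower mean in the libraries labelled crol-KO. The groups of 8 of the 26 did not overlap, beside 50.2% of all tested genes, called genes included. Cpr65Aw was the most negative (log2 fold change -0.94, standard error 0.416, edgeR adjusted p = 0.117): its values of 10.7, 31.3 and 11.4 CPM in the libraries labelled crol-KO straddled part of the 33.6, 25.3 and 44.2 CPM of those labelled wild-type. Cpr47Eb had the fold change closest to 0, with 82.9, 63.9 and 61.6 CPM in the libraries labelled crol-KO against 73.8, 63.0 and 66.2 in those labelled wild-type (0.04, standard error 0.146, edgeR adjusted p = 0.857). The standard error of a Cpr gene had a median of 0.26, above the 0.18 of all tested genes.

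Tested Cpr genes spanned a wide range of levels. By mean TPM over the 6 libraries, 8 lay at or above 100, 16 between 10 and 100, 14 between 1 and 10, and 2 below 1. Calls came from every part of this range. Of the 10 most abundant, 2 were called lower and 1 higher, of the 20 in the middle 6 were called lower and 4 higher, and of the 10 least abundant 1 was called lower. Over all tested genes 13.6% were called, and their calls were not counted by level. The 6 most abundant in order were Cpr65Ax2, Cpr60D, Cpr78E, Cpr47Eg, Cpr49Ac and Cpr47Ec. They held between 60% and 66.5% of the summed Cpr TPM in the libraries labelled crol-KO and between 75.4% and 76.4% in those labelled wild-type.

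Many Cpr genes lie side by side, and bands 49A and 65A held genes called in both directions. In band 49A, 6 of 8 genes were tested, and 3 were called lower (Cpr49Ac, Cpr49Ag and Cpr49Ah) and 1 higher (Cpr49Af), which stands next to Cpr49Ag. Their log2 fold changes ran from -2.59 to 1.12, with Cpr49Ad (0.06, standard error 0.308) and Cpr49Ae (-0.30, standard error 0.356) within their standard errors of 0. In band 65A, 5 of 7 genes were tested: Cpr65Au, Cpr65Av and Cpr65Ay were called higher and Cpr65Ax2, which stands between Cpr65Aw and Cpr65Ay among tested genes, lower. This gave the widest range of any band, from -2.93 to 2.09. In the Release 6 annotation the same stretch holds 20 genes, of which 13 are not Cpr genes, most of them Lcp65A larval cuticle genes. In band 47E, 4 of 7 genes were tested and Cpr47Ee alone was called, and in band 78C 2 of 3 were tested, with Cpr78Cc called lower and Cpr78Ca at -0.05. Band 67F was the only group with 3 tested genes or more in which all log2 fold changes had 1 sign, from -2.03 to -0.51, with 1 call.

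**Figure D3:**
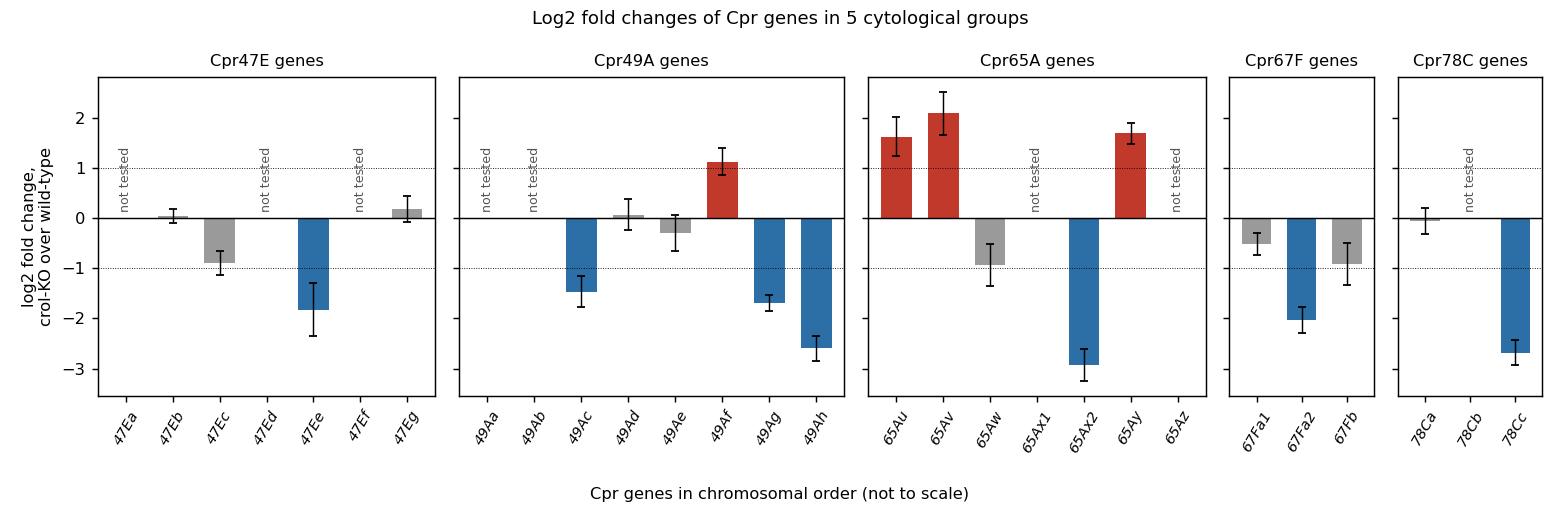
Log2 fold change (y axis, labelled crol-KO over labelled wild-type, with standard error) of Cpr genes in the 5 bands with 2 or more tested Cpr genes and at least 1 call, in the order of the Release 6 annotation (x axis, not to scale). Red and blue bars are genes called higher and lower and grey bars genes not called. Neighbours among the Cpr genes differ in direction in bands 49A (1.12 beside -1.70) and 65A (-2.93 beside 1.69).

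By chromosome arm, 14 of 21 Cpr genes on 2R were tested, with 5 called lower and 1 higher, and 18 of 35 on 3L, with 4 called lower and 3 higher. The 4 tested genes on 3R gave 1 call, Cpr92F. Over all tested genes 13.6% were called, and their calls were not counted by band or arm. The 3 tested on X (Cpr11A, Cpr11B and Cpr12A) and the 1 on 2L (Cpr31A) were called neither by edgeR nor by DESeq2, with an unadjusted p below 0.05 for Cpr11A and Cpr11B.

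Near-identical copies make the values of a few genes uncertain, since RSEM divides reads that match more than 1 gene. Cpr65Ax1, a copy of Cpr65Ax2, was listed at 0 rounded counts in all 6 libraries, so that the reads of both may be counted under Cpr65Ax2, and the sum of the pair had the log2 fold change of Cpr65Ax2, -2.93 (standard error 0.325, edgeR adjusted p = 0.000812). Cpr67Fa1 and Cpr67Fa2 are another such pair. Cpr67Fa1 had 11.3, 13.5 and 13.2 CPM in the libraries labelled crol-KO, against 23.4, 12.6 and 18.3 in those labelled wild-type, and was not called (-0.51, standard error 0.217). Summed over both genes, the counts were 905, 1087 and 480 in the libraries labelled crol-KO and 3079, 2286 and 2550 in those labelled wild-type. That sum would be called lower as well (-1.46, standard error 0.235, edgeR adjusted p = 0.00366). An antisense RNA gene also lies among the band 67F genes in Release 6, and whether the counting used strand is not given in the sources used here.

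The summed level of the family depended on the scale. On the TPM scale all Cpr genes together reached 2261, 3014 and 1985 in the libraries labelled crol-KO, against 5613, 5552 and 5547 in those labelled wild-type. The mean was 2420 ± 532 in the larvae labelled crol-KO and 5571 ± 36.4 in those labelled wild-type (SD, n = 3 each), a ratio of 0.434, and the groups did not overlap (exact two-sided permutation p = 0.10, the smallest that 3 against 3 allow). On the scale of normalized CPM the sums were 1535, 2542 and 1621 in the libraries labelled crol-KO, against 2666, 2491 and 3072 in those labelled wild-type, a ratio of 0.692, and here the groups overlapped (exact two-sided permutation p = 0.20). The scales differ for genes in general, since the median log2 fold change of all tested genes was -0.05 on TMM-scaled counts and -0.48 on log2(TPM + 1). Before such scaling, Cpr genes took up 0.158% ± 0.0341 of the counts in the libraries labelled crol-KO and 0.324% ± 0.00462 in those labelled wild-type (SD, n = 3 each).

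The sums were also split by call, a split whose direction the calls themselves fix. The 9 genes called lower summed to 346 ± 96.6 CPM in the libraries labelled crol-KO and 1354 ± 64.7 CPM in those labelled wild-type, and the 5 called higher to 328 ± 120 CPM in the libraries labelled crol-KO and 123 ± 30.6 CPM in those labelled wild-type. The 26 tested genes without a call summed to 1224 ± 386 CPM in the libraries labelled crol-KO and 1264 ± 221 CPM in those labelled wild-type (SD, n = 3 each). Without Cpr65Ax2 the summed TPM of the family was 2278 ± 493 in the libraries labelled crol-KO and 3811 ± 184 in those labelled wild-type, a ratio of 0.598.

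**Figure D4:**
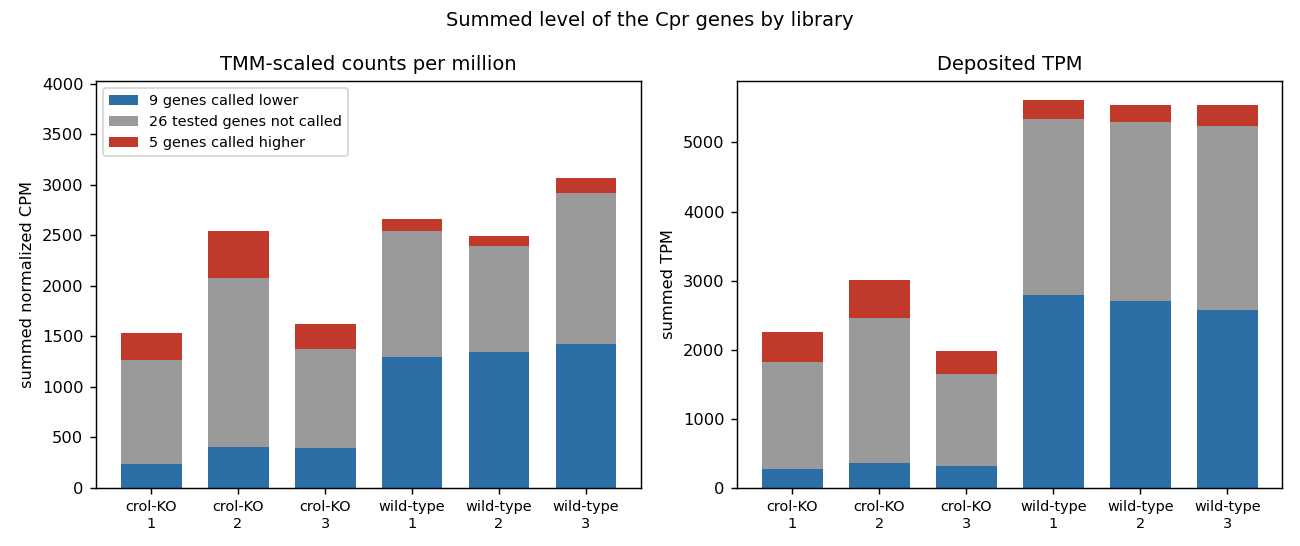
Summed level of the tested Cpr genes in each library, as normalized CPM (left) and as deposited TPM (right), stacked by call. The genes called lower (blue) hold 234 to 405 CPM in the libraries labelled crol-KO and 1295 to 1423 in those labelled wild-type, and on the CPM scale the whole stack of replicate 2 labelled crol-KO passes that of replicate 2 labelled wild-type alone, while on the TPM scale it stays below every library labelled wild-type.

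Cpr genes varied more between libraries of a group than genes in general. The median coefficient of variation was 28.3% in the libraries labelled crol-KO, where that of all tested genes was 12.7%, and 21.1% in those labelled wild-type, where that of all tested genes was 15.5%. Replicate 2 labelled crol-KO held the highest value of its group for 29 of 40 Cpr genes, or 72.5%, against 33.8% of all genes. Within the group labelled wild-type, replicate 2 was the lowest for 30 Cpr genes, or 75%, and replicate 3 the highest for 29, against 43.5% and 37.6% of all genes. Cpr transcripts were short, with a median length of 817 bases against 1677 for all tested genes, and the deviations of libraries from their group were correlated with length over all genes. Across genes, which are not independent replicates, Spearman's rho between the deviation and length was 0.38, -0.22 and -0.27 in replicates 1, 2 and 3 labelled crol-KO and -0.29, 0.44 and -0.38 in those labelled wild-type. The median deviation of the Cpr genes was -0.13, 0.34 and -0.18 in replicates 1, 2 and 3 labelled crol-KO. In those labelled wild-type it was 0.0058, -0.25 and 0.25. Its sign was opposite to that of rho except in replicate 3 labelled crol-KO, and it was close to 0 in replicate 1 labelled wild-type. The part of length in the order of the libraries was not tested. The log2 fold change itself had a rho of -0.37 with length over all genes. After the length trend of each library was removed, 4 Cpr genes were called higher and 12 lower, and Cpr49Af was no longer called.

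**Figure D5:**
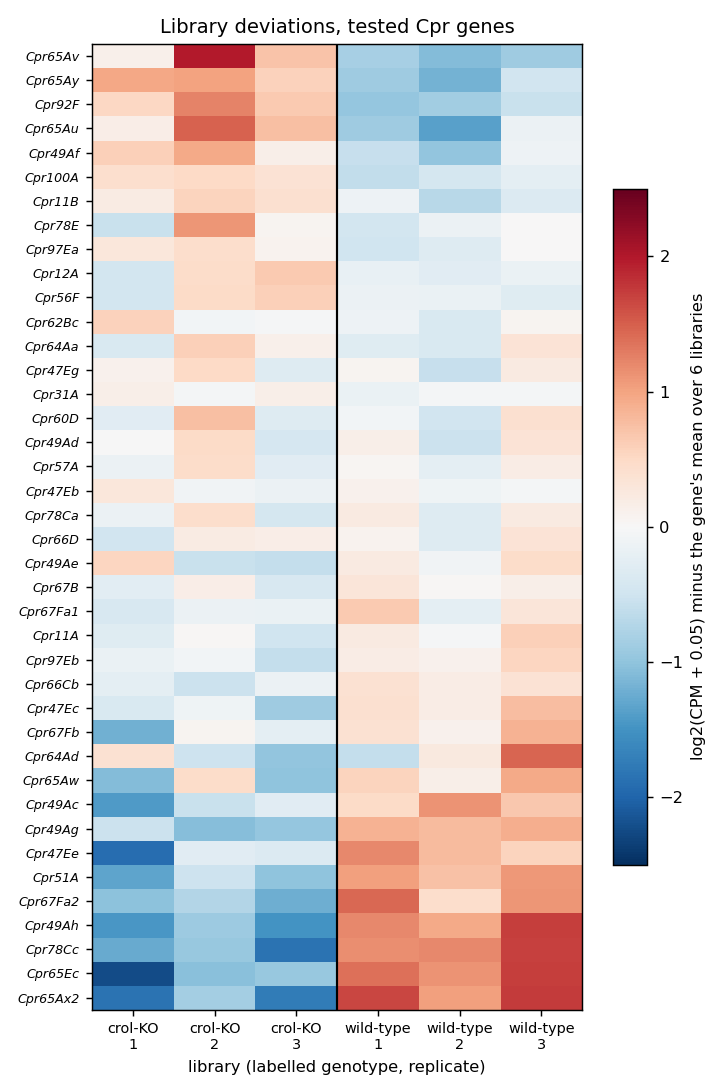
Deviation of each library (x axis) from the mean of the gene over all 6 libraries, as log2(CPM + 0.05), for the 40 tested Cpr genes (y axis, in order of log2 fold change). Red is above and blue below the mean, and replicate 2 labelled crol-KO is the highest of its group for 29 of the 40 genes.

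The 30 Cpr genes that were not tested had few reads. None of their counts exceeded 23 in a library, all had a mean TPM below 1, and 4 (Cpr23B, Cpr30B, Cpr65Ax1 and Cpr76Ba) were at 0 in all libraries. Just inside the filter stood Cpr64Ad, with 13, 6 and 2 counts in the libraries labelled crol-KO and 5, 15 and 27 in those labelled wild-type. Just outside it, with 2 libraries at 10 counts or more, stood Cpr49Aa, Cpr50Cb, Cpr92A and Cpr72Ec. Cpr72Ec had 13, 11 and 8 counts in the libraries labelled crol-KO, against 2, 5 and 1 in those labelled wild-type, and Cpr47Ef had 1, 1 and 0 counts in the libraries labelled crol-KO, against 9, 15 and 4 in those labelled wild-type. With no filter on counts, both would be called, Cpr72Ec higher (2.30, edgeR adjusted p = 0.0186) and Cpr47Ef lower (-3.29, edgeR adjusted p = 0.0188), so that the filter alone keeps them out of the counts.

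Other genes of the cuticle were taken from lists of known members. Of 28 genes that encode cuticle proteins with the same domain under other names, 21 were tested, 6 were called lower and 2 higher, and the median log2 fold change was -0.38. The calls made up 38.1% of the tested members, beside 13.6% of all tested genes. Lcp3, a larval cuticle protein, had 4980, 11100 and 4750 CPM in the libraries labelled crol-KO, against 48.9, 18.7 and 33.8 in those labelled wild-type (7.68, standard error 0.580), the one member with a change of that size. Acp65Aa, an adult cuticle protein gene next to the Cpr65A genes, had 0.257, 0.626 and 0.198 CPM in the libraries labelled crol-KO, against 1.87, 1.59 and 4.10 in those labelled wild-type (-2.72, standard error 0.531), and Lcp65Ad of the same stretch was at -2.63. This list moved in both directions, as the Cpr genes did. The groups of its summed level overlapped on both scales, at 30027 to 61349 TPM and 18298 to 42913 CPM in the libraries labelled crol-KO, against 38735 to 49323 TPM and 12526 to 22366 CPM in those labelled wild-type. In this list 1 member was at 0 in every library, and the part of shared reads in it was not tested.

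Genes of chitin, the partner of Cpr proteins in cuticle, were called in both directions. Of 16 genes for its synthesis and deacetylation, 1 was called higher (the deacetylase gene Cda9, 1.02) and 1 lower (Cda5, -1.28), with a median log2 fold change of 0.02. Among 18 genes for its breakdown, 2 were called higher and 2 lower, and the median was 0.03. These calls made up 12.5% of the first list and 22.2% of the second, beside 13.6% of all tested genes. An unadjusted edgeR p below 0.05 was found for 3 of 16 and 12 of 18 members, beside 45.6% of all tested genes. The chitinase family genes Cht4 (2.62) and Cht9 (2.57) rose and Cht6 (-1.35) and Cht5 (-1.15) fell. Without replicate 2 labelled wild-type, neither Cht6 (-0.79) nor Cht5 (-0.82) was called.

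Regulators and markers of stage and tissue moved beside the Cpr genes. Of 15 genes of the ecdysone cascade, 4 were called lower, or 26.7%, beside 7.55% of all tested genes. The median log2 fold change of the list was -0.94. The calls were led by Eip93F (-2.03) and br (-1.49), which encode transcription factors of metamorphosis. The summed level of the 15 was 35.3 to 43.7 TPM and 267 to 294 CPM in the libraries labelled crol-KO, against 89.4 to 203 TPM and 458 to 792 CPM in those labelled wild-type, so that the groups were apart on both scales. Replicate 2 labelled wild-type stood apart within its group: br had 47.5, 57.3 and 63.6 CPM in the libraries labelled crol-KO, against 110, 255 and 107 in those labelled wild-type. Without that library 1 of the 15 was called lower, Eip93F (-1.42), and br was at -0.92 (edgeR adjusted p = 0.00418). All 15 log2 fold changes were negative with all libraries in the fit. Without replicate 2 labelled wild-type, Eip78C and Hr3 were at 0.07 and 0.09. The list holds crol itself (-0.73), the gene deleted in the knockout. The sign of crol does not describe the cascade, and its values enter the median and the sums of the list.

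Of the pupal cuticle and prepupal list, 1 of 3 tested genes was called lower, Edg91 (-1.32), and Edg84A was at 0 in all libraries. That call made up 33.3% of the tested members, beside 7.55% of all tested genes called lower. The summed level of that list was 43.4 to 76.7 TPM in the libraries labelled crol-KO and 99.9 to 243 TPM in those labelled wild-type, but the groups overlapped in CPM, with 33.7 to 70 in the libraries labelled crol-KO and 55.6 to 115 in those labelled wild-type. The other tested genes of the list, Pcp (-0.45) and Edg78E (-0.49), were not called.

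Late larval genes of fat body and salivary gland were called lower in part. The shares called lower were 50% of the fat body list and 16.7% of the glue list, beside 7.55% of all tested genes. The fat body list had 3 of 6 genes called lower, the receptor gene Fbp1 (-2.15), Lsp1alpha (-1.44) and Fbp2 (-1.24), while the other storage protein genes had positive log2 fold changes, Lsp1beta 0.82 (edgeR adjusted p = 0.0274, under the fold threshold), Lsp2 0.28 and Lsp1gamma 0.19. Its summed TPM was 23387 to 26116 in the libraries labelled crol-KO and 38123 to 42528 in those labelled wild-type, but in CPM the groups overlapped, with 74153 to 88706 in the libraries labelled crol-KO and 70805 to 90886 in those labelled wild-type. The list as a whole was thus lower on the TPM scale only. The salivary glue list had 1 of 6 called lower, Sgs1 (-3.35), with Sgs3 and Sgs4 at -0.86 and -0.89 and Sgs5, Sgs7 and Sgs8 at 0.12, 0.34 and 0.02. It summed to 15192 to 33584 TPM in the libraries labelled crol-KO and 33616 to 39585 TPM in those labelled wild-type, and in CPM the groups again overlapped, with 6585 to 18223 in the libraries labelled crol-KO and 11864 to 16075 in those labelled wild-type. The part of larval stage in the Cpr values was not tested.

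Lists for other tissues of the larva moved in either direction. The tracheal and epidermal, midgut and neuron lists had 40%, 66.7% and 40% of their genes called, beside 13.6% of all tested genes. Of the tracheal and epidermal list, whose genes are not all particular to those cells, 2 of 5 were called lower, shot (-1.54) and trh (-1.03). With DESeq2 neither was called, nor was either without replicate 2 labelled wild-type, where shot, at 557 CPM, stood far above the 158 and 141 CPM of the other libraries of its group. The list summed to 57.7 to 81.5 TPM and 222 to 284 CPM in the libraries labelled crol-KO, against 96.0 to 138 TPM and 298 to 697 CPM in those labelled wild-type. In the highest of these CPM sums, that of replicate 2 labelled wild-type, shot alone held 557 CPM. The genes vvl and btl were at -0.61 and -0.11 and were not called. Gasp, a chitin-binding protein gene of the tracheal lining in this list, was not called, with 137, 169 and 109 CPM in the libraries labelled crol-KO against 123, 103 and 130 in those labelled wild-type (0.22, standard error 0.179).

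The midgut list had 4 of 6 called higher, led by the trypsin gene betaTry (2.33), while the maltase gene Mal-A1 was at -0.90 (edgeR adjusted p = 0.0101, under the fold threshold). It summed to 42799 to 52128 TPM and 53760 to 57490 CPM in the libraries labelled crol-KO, against 20486 to 21667 TPM and 12935 to 19040 CPM in those labelled wild-type. The neuron list had 2 of 5 called lower, para (-1.60) and brp (-1.43), and 1, para (-1.11), without replicate 2 labelled wild-type. It summed to 9.53 to 14 TPM and 73.5 to 82.1 CPM in the libraries labelled crol-KO, against 22.2 to 36.7 TPM and 112 to 136 CPM in those labelled wild-type. The groups of both lists were apart on either scale. None of the genes of these lists was at 0 in all libraries.

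The lists for larval muscle and hemocytes had median log2 fold changes of 0.34 and -0.40. Neither list held a gene called by edgeR or DESeq2. An unadjusted p below 0.05 with edgeR was found for 1 of 6 muscle genes and 2 of 4 hemocyte genes, beside 45.6% of all tested genes. The muscle list summed to 6222 to 10216 TPM and 15888 to 23389 CPM in the libraries labelled crol-KO, against 8956 to 9187 TPM and 13129 to 17778 CPM in those labelled wild-type, with overlap on both scales. The hemocyte list summed to 33.3 to 49.9 TPM in the libraries labelled crol-KO and 75.4 to 103 TPM in those labelled wild-type, but the groups overlapped in CPM, with 187 to 244 in the libraries labelled crol-KO and 211 to 342 in those labelled wild-type. The part of these tissues in the Cpr values was not tested.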

How the data were processed

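Polyadenylated RNA of 6 libraries was prepared with a directional kit. Per the methods and the submitters' processing notes, the authors trimmed reads with Trim Galore 0.6.1, aligned them to dm3 with STAR 2.7.3a and ran RSEM 1.3.2. The deposited expected counts are RSEM estimates per gene, not scaled to depth. The deposited TPM values are scaled to transcript length and library. Whether a count stands for a read or a read pair was not settled. The authors' own calls used featureCounts (Subread 2.0.0) and DESeq2 1.22.2, and those values were not used here.

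Expected counts were rounded, and genes that reached 10 counts or more in 3 or more libraries went into edgeR 4.0.16 (R 4.3.3; TMM, quasi-likelihood test, Benjamini-Hochberg, no block). A standard error is the log2 fold change divided by the square root of F. DESeq2 1.42.0 and limma 3.58.1 were used for alternatives, next to other size factors, filters, thresholds, a replicate block, removal of the trend over length (lowess, span 0.3) and leaving out each library. Each library is labelled as a separate replicate, and the methods of the paper give 40 larvae per sample. On counts simulated for this comparison over 12343 genes, edgeR called 99.5% of 200 changed genes and 1 unchanged gene. The changed genes were drawn only from genes above a minimum mean count, with changes larger than the smallest called here. Every gene was given the same dispersion. The 99.5% thus does not cover Cpr genes of low counts, smaller changes or wider spread.

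Cpr genes named with values per library were all those called whose mean reached 1 CPM, the 6 of highest mean TPM and those beside the count filter, and for other lists at most 2 called genes in each direction. Outside this rule, Gasp was given with values per library though not called, and all 3 called genes of the fat body list were named. Cpr47Ee, Cpr47Eb, Cpr65Aw, Cpr67Fa1, Cpr100A, Cpr11B and Cpr47Ef were chosen after their values were seen. The members and lists were chosen with earlier results of these data known. Symbols of all 70 Cpr genes were found in the Release 6 annotation, used for names, arms and gene order only, since the authors worked in dm3. Protein classes and promoter motifs were not analysed here.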

Additional observations from a re-analysis of the deposited data

How the results depend on the processing

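Of the 14 called Cpr genes, 9 (Cpr49Ac, Cpr49Ag, Cpr49Ah, Cpr51A, Cpr65Av, Cpr65Ax2, Cpr65Ec, Cpr67Fa2 and Cpr78Cc) were called in each of 15 alternatives of test, normalization, count filter, unit, block, length trend or left-out library, 5 (Cpr47Ee, Cpr49Af, Cpr65Au, Cpr65Ay and Cpr92F) were lost in at least 1, and none changed sign. Cpr65Ay and Cpr92F lost their calls on TPM scales only. Of the tested Cpr genes without a call, 9 were called in at least 1 alternative. Cpr47Ec and Cpr65Aw were each called lower in 4. On log2(TPM + 1) and log2(TPM + 0.1) with limma, 1 and 2 Cpr genes were called higher instead of 5, and 17 lower instead of 9 with the smaller pseudocount. The median of the Cpr genes was then -0.57 and -0.72 instead of -0.06, beside -0.48 and -0.67 for all genes. At an adjusted p below 0.01, 3 Cpr genes were called higher. Leaving out 1 library gave 3 to 6 Cpr genes called higher, 8 to 11 called lower and medians of -0.25 to 0.10. Cpr60D turned to -0.57 on both TPM scales and -0.13 after removal of the length trend, and ranged from -0.30 (without replicate 2 labelled crol-KO) to 0.46 with 1 library left out, -0.0094 being that without replicate 2 labelled wild-type. Cpr78E turned to -0.28 on both TPM scales, and ranged from -0.028 (without replicate 2 labelled crol-KO) to 0.86 with 1 library left out. Cpr47Eg turned to -0.49 on both TPM scales, -0.11 after removal of the length trend, and from -0.036 (without replicate 2 labelled crol-KO) to 0.41 with 1 library left out. The causes were not tested.

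Over all genes, 746 were called higher and 939 lower. The TPM scales gave 175 and 247 higher and 1689 and 3139 lower, no fold threshold 1900 and 2212, and an adjusted p below 0.01 gave 583 lower. Leaving out 1 library gave 606 to 889 higher and 576 to 1089 lower, the lowest of the counts lower being that without replicate 2 labelled wild-type. Upper-quartile normalization turned the split to 912 higher and 752 lower, with a median of all genes of 0.07.

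Replicate numbers did not pair the samples: deviations of same-numbered libraries correlated at 0.0035, -0.29 and -0.05. With the replicate block, 5 Cpr genes were called higher and 8 lower, and over all genes 682 higher and 809 lower. With 3 libraries a group and counts as low as those of Cpr47Ee, changes of the least abundant Cpr genes were not well measured at this depth.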
